A study of Mus musculus with 2 samples.

Results

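Gata4, Gata6, Sox17, Foxa2, T, Eomes, Gsc, Mixl1, Cdx2 and Hand1 encode transcription factors that direct mesoderm, endoderm or trophoblast. They were listed by name as lineage genes that are low in embryonic stem cells, at a time when earlier results of these libraries were known. All 10 were found among 22359 protein-coding genes with a transcription start site (TSS) on mm9, and all 10 were among the 21717 genes that had at least 100 reads of each library between 5 and 50 kb from the TSS. ChIP-seq was carried out on formaldehyde-crosslinked chromatin of mouse embryonic stem cells (mESCs) with the anti-Msl1 antibody 3208 in 1 library and with the anti-Nsl1 antibody 3130 in 1 library. Both libraries came from E14 cells of genotype wt and background 129P2/OlaHsd at passage 26, which according to the methods had been taken off feeder cells for 1 passage. The Msl1 library was made with NEXTFlex reagents and read over 50 bases, and the Nsl1 library with NEBNext reagents and 36 bases, so that antibody, kit and read length cannot be told apart. RNA was not analysed here, and whether these genes were low in these cells was therefore not checked.

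Msl1 and Nsl1 are subunits of the MSL and NSL complexes, which both contain the histone acetyltransferase Mof, known for acetylation of lysine 16 of histone H4. In embryonic stem cells many lineage regulators are known to lie in CpG islands that carry H3K4me3 together with the Polycomb mark H3K27me3, a state called bivalent, in which the genes are little transcribed and can be activated on differentiation. T, Eomes, Gsc and Mixl1 act in the primitive streak, from which mesoderm and definitive endoderm arise. Gata4, Gata6, Sox17 and Foxa2 act in primitive or definitive endoderm, while Cdx2 and Hand1 act in the trophoblast lineage.

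Promoter sequences are shown for members that differ in where the reads lay and in CpG content. Within 500 bases of the TSS, T was high in Msl1 with Nsl1 near the local level, and Foxa2 was low in both libraries. Within 2 kb, Foxa2 was at 2.29 times the local level for Msl1. The Gsc promoter has the most CpG dinucleotides of the entries. The Eomes promoter has the fewest of the entries, in a window that is CpG-rich as a whole. The sequences are RefSeq promoters of build GRCm38.p6, each of which was found without a mismatch on mm9. They run from 250 bases before to 50 bases after the RefSeq TSS. Entries were used for Cdx2, Eomes, Foxa2, Gsc and T, and the members with a missing entry are Gata4, Gata6, Sox17, Mixl1 and Hand1. Sequences are written 5′ to 3′ on the strand of the gene with every CpG dinucleotide in capitals.
T, chr17:8627038-8627337, plus strand: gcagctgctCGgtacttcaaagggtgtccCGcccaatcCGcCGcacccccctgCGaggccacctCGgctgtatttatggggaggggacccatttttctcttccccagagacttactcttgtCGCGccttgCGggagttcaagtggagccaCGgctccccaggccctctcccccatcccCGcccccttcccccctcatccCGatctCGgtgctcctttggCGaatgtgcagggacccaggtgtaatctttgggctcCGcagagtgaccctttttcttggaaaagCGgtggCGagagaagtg
Gsc, chr12:105711397-105711696, minus strand: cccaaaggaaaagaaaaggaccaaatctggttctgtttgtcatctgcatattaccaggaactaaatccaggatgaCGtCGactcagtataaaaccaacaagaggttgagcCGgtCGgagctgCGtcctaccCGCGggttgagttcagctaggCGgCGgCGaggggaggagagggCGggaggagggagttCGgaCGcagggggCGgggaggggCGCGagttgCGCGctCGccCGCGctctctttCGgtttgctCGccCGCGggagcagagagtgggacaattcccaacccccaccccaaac
Foxa2, chr2:147871635-147871934, minus strand: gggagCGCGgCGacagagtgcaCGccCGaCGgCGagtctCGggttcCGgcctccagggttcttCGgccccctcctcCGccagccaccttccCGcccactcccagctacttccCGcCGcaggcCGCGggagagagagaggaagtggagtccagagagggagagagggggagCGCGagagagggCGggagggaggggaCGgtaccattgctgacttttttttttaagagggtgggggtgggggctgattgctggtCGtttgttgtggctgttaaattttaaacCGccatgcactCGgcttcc
Eomes, chr9:118387057-118387356, plus strand: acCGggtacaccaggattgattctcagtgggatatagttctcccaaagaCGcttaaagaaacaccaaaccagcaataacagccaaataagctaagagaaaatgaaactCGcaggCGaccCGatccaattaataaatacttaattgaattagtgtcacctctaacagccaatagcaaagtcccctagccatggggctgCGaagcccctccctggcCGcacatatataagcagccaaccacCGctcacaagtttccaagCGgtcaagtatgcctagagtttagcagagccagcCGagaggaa

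These 300 bases held 17 CpG dinucleotides at T, 25 at Gsc, 23 at Foxa2 and 10 at Eomes, beside a median of 12 (quartiles 3 and 24) over 22354 promoters of the same length and position. The Foxa2 entries not shown held 13 and 12. Among the 7 promoter entries of the 5 members, GGGCGG was found on either strand in 5, and it was found in 44.7% of all 22354 promoters. Foxa2 has 3 of the 7 entries, each with GGGCGG, so that the members do not count alike. By gene, GGGCGG was found at T, Gsc and Foxa2 and not at Cdx2 or Eomes. CCAAT was found on either strand in 4 of the 7 and in 37.5% of all promoters. On the strand of the gene, TATAAA was found in 1 of the 7, that of Gsc, and in 9.06% of all, and TATATA in 1, that of Eomes, and in 5.53% of all. In the 300 bases themselves lay 4 Msl1 and 3 Nsl1 reads at T, 4 and 6 at Gsc, 6 and 4 at Foxa2 and 9 and 2 at Eomes, so that most Msl1 reads counted below lay beside these stretches. CACGTG and GATAAG, on either strand, were found in none of the 7, and in 7.78% and 6.76% of all promoters.

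Around the TSSs of the lineage regulators, Msl1 reads were above their surroundings at most of the genes, whereas Nsl1 reads were close to them. All ratios compare reads per kb in a window with the local level, which is the number of reads per kb of the same library between 5 and 50 kb on both sides of the TSS. Within 500 bases of the TSS the Msl1 ratio was at 2 or more at 7 of the 10 genes, and the Nsl1 ratio at 0 of the 10. Of all 21717 tested TSSs, 46.5% reached a ratio of 2 for Msl1 and 41.6% did so for Nsl1. The median of the 10 genes was 2.70 for Msl1, beside 1.87 over all TSSs, and 1.198 for Nsl1, beside 1.72 over all TSSs. When the reads of the 10 genes were added up, 265 Msl1 reads gave a ratio of 2.58 (95% interval 2.28 to 2.92) and 158 Nsl1 reads gave a ratio of 1.22 (1.04 to 1.43).

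The intervals are exact and cover counting error only. Each antibody was used in 1 library, and the values therefore stand without a test between samples. The lower bound of the interval was above 1 at 8 of the 10 genes for Msl1, beside 53.8% of all TSSs, and at 2 of the 10 for Nsl1, beside 51.2%. Among the 9958 CpG-rich TSSs, defined below, it was above 1 at 8629 for Msl1 and at 7741 for Nsl1. A ratio of 2 or more for Msl1 together with a ratio under 2 for Nsl1 was found at 7 of the 10 lineage regulators and at 15.7% of all TSSs. In place of the local level, the level of the whole genome as background put 3 genes at 2 or more for Nsl1, beside 52.3% of all TSSs, and 9 for Msl1, beside 58.5%.

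**Figure D1:**
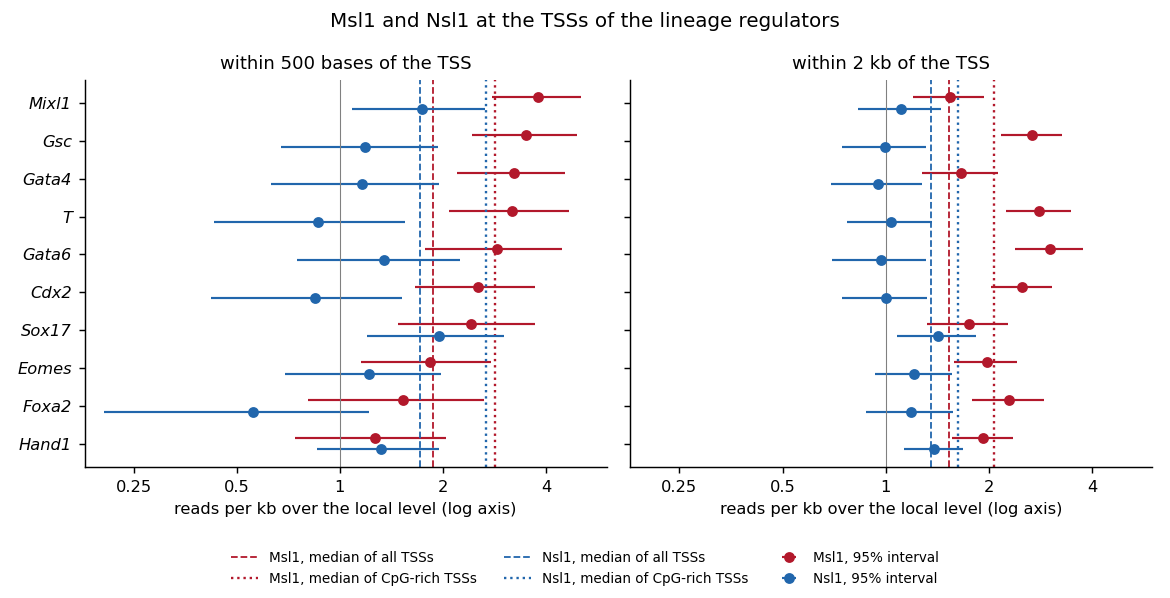
Reads per kb over the local level (log axis) at each of the 10 genes within 500 bases (left) and within 2 kb (right) of the TSS, with 1 point per library and gene and bars for the exact 95% interval. Dashed and dotted lines are the medians of all tested TSSs and of the CpG-rich TSSs. Within 500 bases the Msl1 points run from 1.27 at Hand1 to 3.78 at Mixl1, and the Nsl1 points from 0.558 at Foxa2 to 1.95 at Sox17.

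Of the genes of the primitive streak, Mixl1, Gsc and T were at 3 or more for Msl1 within 500 bases, and Eomes was lower. Mixl1, a homeobox gene of the streak, has its TSS at 182627165 on the minus strand of chromosome 1, with 48 Msl1 reads within 500 bases at a ratio of 3.78 (95% interval 2.77 to 5.05). At the same window 22 Nsl1 reads gave a ratio of 1.74 (1.09 to 2.65). Both antibodies were thus above the local level at Mixl1, and Msl1 reached its highest value among the 10 genes. Gsc, the homeobox gene goosecoid of the organizer, has its TSS at 105711537 on the minus strand of chromosome 12. It held 35 Msl1 reads at a ratio of 3.50 (2.42 to 4.90) and 16 Nsl1 reads at a ratio of 1.18 (0.674 to 1.93). T, the T-box gene Brachyury of the streak and notochord, has its TSS at 8627288 on the plus strand of chromosome 17. It held 27 Msl1 reads at a ratio of 3.18 (2.08 to 4.67) and 11 Nsl1 reads at a ratio of 0.862 (0.429 to 1.55). At Mixl1, Gsc and T the interval of Msl1 lay above that of Nsl1. Eomes, a T-box gene of the streak and also of trophoblast stem cells, has its TSS at 118387462 on the plus strand of chromosome 9. It held 23 Msl1 reads at a ratio of 1.83 (1.16 to 2.76) and 16 Nsl1 reads at a ratio of 1.21 (0.691 to 1.98), and these intervals overlapped.

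The endoderm regulators were less alike. Gata4, a zinc finger gene of endoderm and heart, has its TSS at 63864108 on the minus strand of chromosome 14, with 33 Msl1 reads at a ratio of 3.22 (2.20 to 4.55) and 14 Nsl1 reads at a ratio of 1.16 (0.630 to 1.95), whose intervals did not overlap. Gata6, which is needed for primitive endoderm, has its TSS at 11052508 on the plus strand of chromosome 18, with 21 Msl1 reads at a ratio of 2.88 (1.77 to 4.43) and 15 Nsl1 reads at a ratio of 1.35 (0.752 to 2.24). Sox17, an HMG box gene of endoderm, has its TSS at 4486494 on the minus strand of chromosome 1. It held 21 reads of each library, at ratios of 2.41 (1.48 to 3.70) for Msl1 and 1.95 (1.203 to 3.002) for Nsl1. Sox17 had the highest Nsl1 ratio of the 10 genes, and this value was the nearest to a ratio of 2 for Nsl1. Foxa2, a forkhead gene of endoderm, node and notochord, has its TSS at 147871684 on the minus strand of chromosome 2, with 13 Msl1 reads at a ratio of 1.53 (0.810 to 2.63) and 6 Nsl1 reads at a ratio of 0.558 (0.204 to 1.22). Both intervals of Foxa2 included 1, and its Nsl1 ratio was lower than that of all but 5.12% of the tested TSSs.

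Of the trophoblast regulators, Cdx2 but not Hand1 was above the local level for Msl1 within 500 bases of the TSS used. Cdx2, the caudal homeobox gene of the trophectoderm, has its TSS at 148118846 on the minus strand of chromosome 5, with 27 Msl1 reads at a ratio of 2.53 (1.66 to 3.70) and 11 Nsl1 reads at a ratio of 0.848 (0.422 to 1.52), whose intervals did not overlap. Hand1, a basic helix-loop-helix gene of trophoblast giant cells and heart, has its TSS at 57645649 on the minus strand of chromosome 11. It held 17 Msl1 reads at a ratio of 1.27 (0.737 to 2.04) and 26 Nsl1 reads at a ratio of 1.32 (0.860 to 1.94). Hand1 alone had an Nsl1 ratio within 500 bases of the TSS used that was not below its Msl1 ratio, and the intervals overlapped. At its other annotated TSS the Msl1 ratio was the higher one. It also had the highest local levels, 13.4 Msl1 and 19.7 Nsl1 reads per kb, which were 1.76 and 2.02 times the level of the genome.

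Added up by lineage, the Msl1 ratio within 500 bases was 3.04 (2.54 to 3.61) at the 4 genes of the streak, 2.53 (2.02 to 3.13) at the 4 endoderm genes and 1.83 (1.32 to 2.46) at the 2 trophoblast genes. The trophoblast value rests on Cdx2 and Hand1 alone, and Hand1 had 26 Msl1 reads at its other annotated TSS, beside 17 at the TSS used. Within 2 kb the Msl1 ratio was 2.17 (1.94 to 2.41), 2.12 (1.87 to 2.39) and 2.18 (1.88 to 2.51) for streak, endoderm and trophoblast, so that the order was another and the groups did not separate. The Nsl1 ratio within 500 bases was 1.25 (0.961 to 1.59), 1.25 (0.944 to 1.63) and 1.13 (0.796 to 1.57) in the same order, and these did not separate. In the order of Msl1 from Mixl1, Gsc, Gata4, T, Gata6, Cdx2, Sox17, Eomes and Foxa2 down to Hand1, the intervals of neighbours overlapped in 9 of 9 cases. Of the 45 pairs of genes, 6 had Msl1 intervals apart, 4 of them with Hand1 as the lower gene and 2 others of Mixl1 above Foxa2 and Eomes. The 4 pairs with Hand1 overlapped when its other annotated TSS, at 1.94 (1.26 to 2.86), took the place of the one used. The 2 pairs of Mixl1, whose lower bound was 2.77, also overlapped with other annotated sites. These were the Foxa2 site 1021 bases upstream, with an upper bound of 3.37, and the Eomes site 517 bases downstream, with 3.80. For Nsl1, 0 of 45 pairs were apart.

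**Figure D2:**
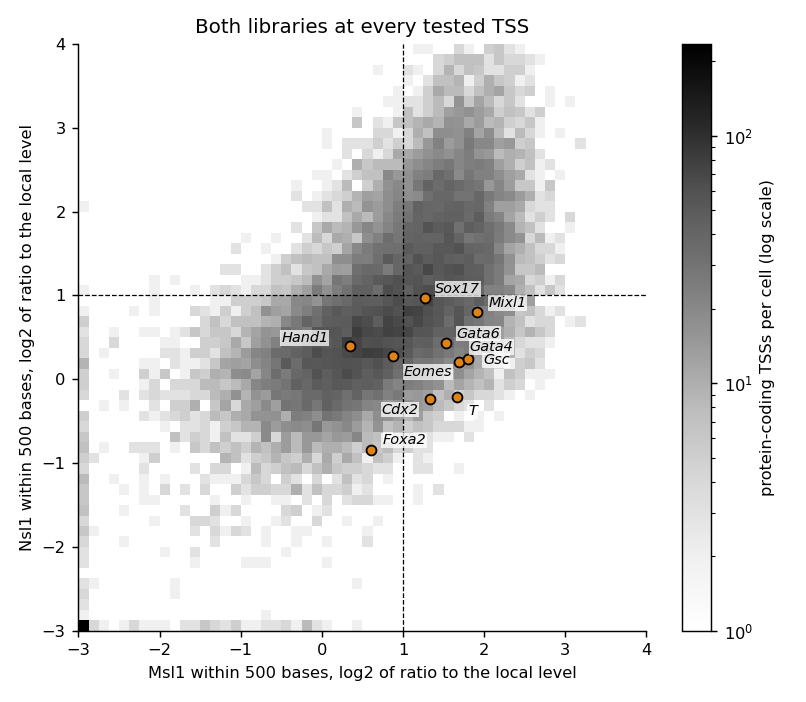
Ratio to the local level within 500 bases of the TSS, Msl1 on the x axis and Nsl1 on the y axis, both as log2. Grey cells count the tested TSSs on a log colour scale, with 440 that lay below the axes drawn at the lower edge and 73 above them not drawn, and orange points are the 10 genes. Dashed lines mark a ratio of 2, and 7 of the genes lie to the right of one and all 10 lie below the other.

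When the window was widened to 2 kb on both sides, all 10 genes had an Msl1 interval above 1, beside 58.7% of all TSSs, and 2 of the 10 had such an Nsl1 interval, beside 52.7%. Of the 9958 CpG-rich TSSs, defined below, 9083 had such an Msl1 interval and 7625 such an Nsl1 interval. The Msl1 ratio reached 2 at 5 of the 10 genes, Gata6, T, Gsc, Cdx2 and Foxa2, beside 29.5% of all TSSs. The Nsl1 ratio reached 2 at 0 of the 10, beside 16.7%. Against the genome level, the Msl1 ratio within 2 kb was at 2 or more at 10 genes, beside 52.4% of all TSSs. The medians were 2.13 for Msl1 and 1.07 for Nsl1, beside 1.53 and 1.35 over all TSSs.

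The order of the genes was different in this wider window. Gata6 was highest for Msl1, with 88 reads at a ratio of 3.01 (2.38 to 3.77), followed by T with 95 reads at 2.80 (2.24 to 3.47) and Gsc with 107 reads at 2.68 (2.17 to 3.27). Mixl1, the highest within 500 bases, was the lowest within 2 kb, with 78 reads at 1.54 (1.21 to 1.93). Gata4 had 68 reads at 1.66 (1.28 to 2.12) and lay beside it. The Msl1 ratio thus dropped with the wider window at Mixl1 and Gata4, while T and Gsc were high in both windows and Gata6 had a similar ratio in both. Cdx2 had 107 reads at 2.51 (2.03 to 3.06) and Foxa2 had 78 reads at 2.29 (1.79 to 2.90). Foxa2, within its interval of the local level at the TSS itself, was above it in this window. Eomes, Hand1 and Sox17 had ratios of 1.97, 1.92 and 1.75. This order is one of ratios and not of read numbers, because the local levels differed. The local Msl1 level was lowest at Gata6, with 7.3 reads per kb, beside 8.51 at Foxa2 and 12.7 at Mixl1. Foxa2 and Mixl1 thus held the same 78 reads at different ratios. Of the 45 pairs, 9 had Msl1 intervals apart, and neighbours in the order overlapped in 9 of 9 cases.

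The Nsl1 ratio within 2 kb lay between 0.950 at Gata4 and 1.42 at Sox17. Sox17 with 61 reads (1.08 to 1.84) and Hand1 with 109 reads at 1.38 (1.13 to 1.68) were the 2 genes whose interval was above 1. At the other 8 genes, which had between 43 and 64 Nsl1 reads, the interval included 1, so that a difference from the local level was not detectable at this depth. None of the 45 pairs had Nsl1 intervals apart.

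The libraries were also compared with each other directly, by dividing the Msl1 reads within 2 kb by the Nsl1 reads after scaling to 19483142 and 24883001 distinct reads. The quotient was 1.5 or more at 8 of the 10 genes, beside 26.5% of all TSSs, and its inverse was 1.5 or more at 0 of the 10, beside 9.44%. It was highest at Cdx2 with 2.63 (1.87 to 3.73), Gata6 with 2.61 (1.795 to 3.86) and Gsc with 2.53 (1.81 to 3.58). T followed with 2.29, Eomes with 1.98, Foxa2 with 1.95, Gata4 with 1.89 and Mixl1 with 1.78. The 2 genes under 1.5 were Sox17 with 1.28 (0.881 to 1.85) and Hand1 with 1.21 (0.913 to 1.60). The lower bound was above 1 at the same 8 genes, beside 30.5% of all TSSs. Over the 10 genes together the quotient was 1.92 (1.73 to 2.13), and between 5 and 50 kb from their TSSs it was 1.01 (0.985 to 1.04). The excess of Msl1 over Nsl1 was thus near the TSSs and not in the surrounding level.

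The 8 genes with a quotient of 1.5 or more were also the 8 with a CpG-rich TSS, here defined by at least 50% GC and an observed over expected CpG ratio of at least 0.6 within 500 bases. That ratio ran from 0.635 at Eomes to 0.930 at Gsc in the 8 genes, and it was 0.415 at Sox17 and 0.386 at Hand1. Among the 9958 tested CpG-rich TSSs, 77.4% reached 2 for Msl1 within 500 bases, and 6 of the 8 CpG-rich lineage regulators did, which is a share near that of the class. For Nsl1 the class had 66.4% and the lineage regulators had 0 of 8. Within 2 kb the class had 54.2% for Msl1 and 28.3% for Nsl1, and the lineage regulators had 5 and 0 of 8. A quotient of Msl1 to Nsl1 of 1.5 or more was found in 43.8% of the class, and its inverse in 5.0%. Msl1 at 2 or more with Nsl1 under 2 was found in 22.8% of the class and at 6 of the 8 genes. The Msl1 values thus lay within the range of the class, and the Nsl1 values lay in its lower part. The share of CpG-rich TSSs with a lower Nsl1 ratio within 500 bases was 0.874% at Foxa2, 2.97% at Cdx2, 3.14% at T, 8.63% at Gata4, 9.26% at Gsc, 9.97% at Eomes, 13.8% at Gata6 and 25.7% at Mixl1. For Msl1 the same share ran from 10.8% at Foxa2 to 76.0% at Mixl1 in these 8 genes. Added up, the 8 genes had 227 Msl1 reads within 500 bases at a ratio of 2.82 (2.46 to 3.22) and 111 Nsl1 reads at 1.12 (0.921 to 1.35), beside 2.87 and 3.37 for all CpG-rich TSSs.

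Reads of both libraries moved with CpG content over all TSSs. In 4458 TSSs with an observed over expected CpG ratio under 0.2 the median ratios within 500 bases were 1.01 for Msl1 and 1.11 for Nsl1, and in 4694 TSSs at 0.8 or more they were 3.01 and 2.70. Along the lineage regulators themselves, bins of 250 bases with 10 or more CpG dinucleotides had a higher mean Msl1 ratio than the other bins at 10 of 10 genes, and a higher mean Nsl1 ratio at 9 of 10. At Gsc the mean Msl1 ratio was 2.86 in 14 such bins and 1.54 in the other bins, and at Cdx2 it was 2.81 in 12 bins and 1.35 in the others. For Nsl1 the means were 1.08 and 0.717 at Gsc and 1.13 and 0.980 at Cdx2. Spearman's rho between CpG number and reads over the 40 bins of a gene ran from 0.25 at Foxa2 to 0.68 at Cdx2 for Msl1 and from -0.018 at Gata6 to 0.63 at Sox17 for Nsl1. The bins of a gene share its library and neighbouring sequence, and other genes were not counted in this way, so these values are a description. They do not set the lineage regulators apart from other genes. No input chromatin was used here, and the part that base composition has in the read numbers was not tested.

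Within 5 kb of the TSS the Msl1 reads of the 10 genes rose around the TSS, and the Nsl1 reads formed no clear rise. The highest Msl1 bin of the added profile lay from 250 to 500 bases downstream, at 3.12 times the local level. It lay at the same place over all TSSs, at 3.03, and over CpG-rich TSSs, at 4.28. For Nsl1 the highest bin of the 10 genes was from 250 to 500 bases too, at 1.64, whereas it was 3.06 in all TSSs and 4.34 in CpG-rich TSSs, at the TSS itself. At the 1113 TSSs of olfactory receptor genes, which have no CpG-rich TSS and are known to be silent outside the olfactory epithelium, the highest bins were 1.21 for Msl1 and 1.48 for Nsl1. In the height of the highest bin the Nsl1 profile of the lineage regulators was thus nearer to that of the olfactory receptors than to that of CpG-rich TSSs, while their Msl1 profile lay between both. Their highest Nsl1 bin held 53 reads and was picked out of 40 bins. Within 500 bases the added Nsl1 ratio was 1.22 in the lineage regulators, 1.28 in the olfactory receptors and 3.37 in CpG-rich TSSs.

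**Figure D3:**
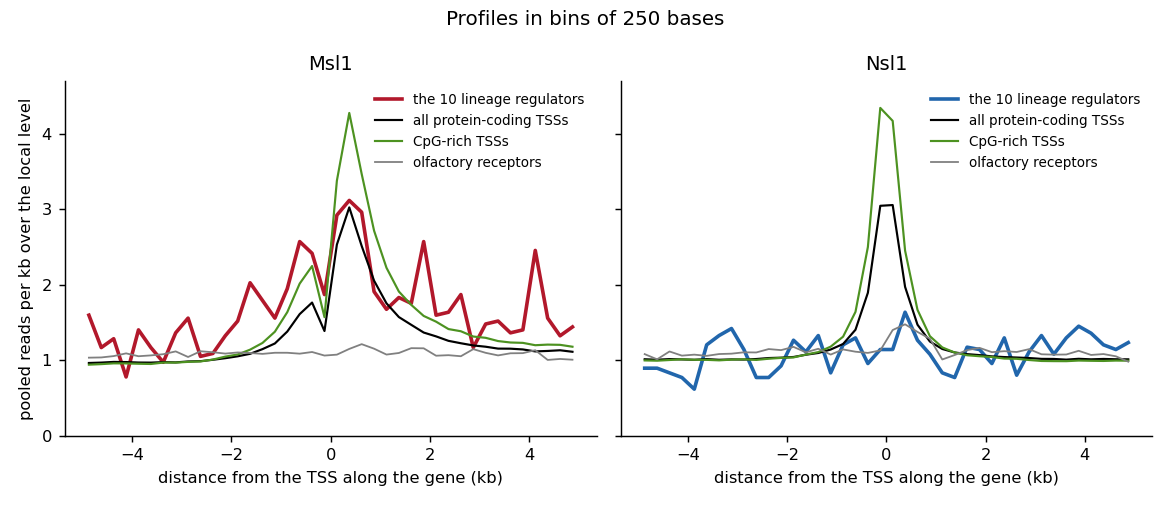
Reads of the 10 genes added up in bins of 250 bases over their local level, from 5 kb upstream to 5 kb downstream of the TSS, for Msl1 (left) and Nsl1 (right), beside all tested TSSs, the CpG-rich TSSs and the olfactory receptors. The Msl1 line of the 10 genes reaches 3.12 from 250 to 500 bases, beside 3.03 for all TSSs and 4.28 for CpG-rich TSSs. The Nsl1 line of the 10 genes stays at or under 1.64 where the CpG-rich TSSs reach 4.34.

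The genes differed in where the Msl1 reads lay. Of the 400 bins of the 10 genes, 143 reached a ratio of 2 for Msl1, beside 20.5% of the bins of all TSSs and 25.6% of those of CpG-rich TSSs. For Nsl1, 45 of the 400 bins did, beside 14.8% and 15.9%. The genes had between 4 bins of 40 at Mixl1 and 23 of 40 at Gata6 for Msl1. The local Msl1 level was 12.7 reads per kb at Mixl1 and 7.3 at Gata6, so that a ratio of 2 took fewer reads at Gata6. The highest Msl1 bin started between 0 and 500 bases downstream at Mixl1, Gsc and Eomes. At Gata6 the bins from 250 and from 1750 bases downstream tied with 10 reads each at a ratio of 5.48, and at Cdx2 those from 500 and from 1500 bases tied with 12 reads each at 4.495. The highest value was that of Gsc, with 20 reads from 250 to 500 bases downstream at a ratio of 8.0. At T it lay from 750 to 500 bases upstream with 12 reads at 5.65, and at Gata4 from 500 to 250 bases upstream with 11 reads at 4.29. At Foxa2 it lay downstream, from 1250 to 1500 bases, with 13 reads at 6.11. At Hand1 it lay from 1750 to 2000 bases downstream with 14 reads at 4.18, and at Sox17, where it was farthest away, from 4000 to 4250 bases downstream with 12 reads at 5.50. A highest bin is picked out of 40, so its value describes the gene and its position can shift with a few reads.

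**Figure D4:**
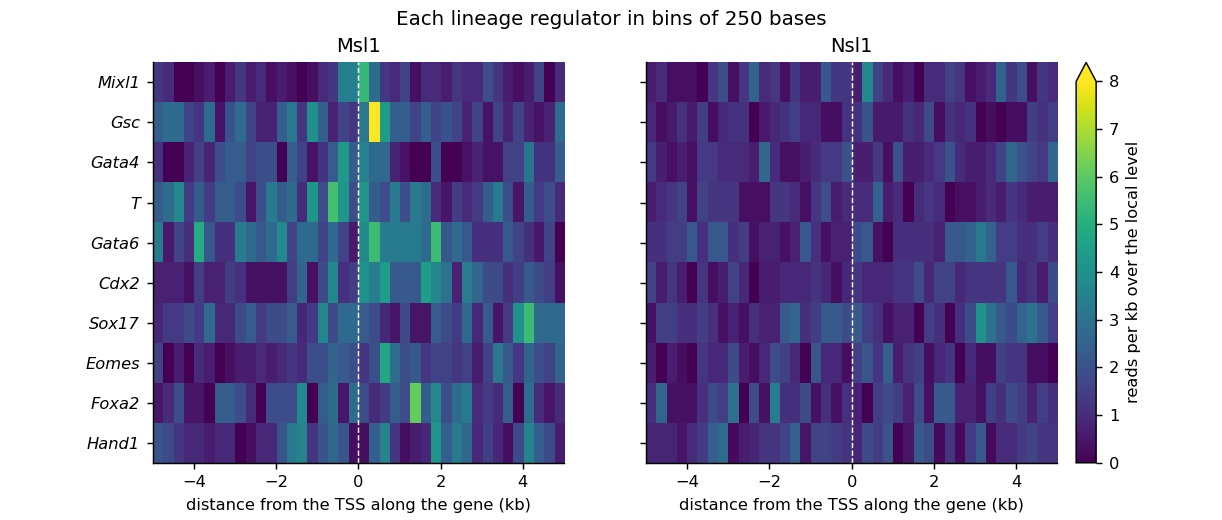
Reads per kb over the local level in bins of 250 bases from 5 kb upstream to 5 kb downstream of the TSS, 1 row per gene in the order of the Msl1 ratio within 500 bases, for Msl1 (left) and Nsl1 (right), on 1 colour scale. The Msl1 panel shows the bin of Gsc at 8.0 and the rows of Gata6, T and Cdx2 with raised bins over kilobases, and the highest Nsl1 bin of the panel is 4.09 at Sox17.

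Windows of 500 bases moved in steps of 50 bases over 10 kb on both sides gave a similar picture. The highest Msl1 window was centred within 1 kb of the TSS at 7 of the 10 genes, beside 52.5% of all TSSs, with ratios from 3.51 at Gata4 to 7.0 at Gsc. In Gsc this window, chr12:105710888-105711387, held 35 reads and was centred 400 bases downstream of the TSS. In Foxa2 it was chr2:147870235-147870734, centred 1200 bases downstream, with 19 reads at 4.47. The window of Sox17, chr1:4482245-4482744, was centred 4000 bases downstream within the gene, with 21 reads at 4.81. The highest Nsl1 window was centred within 1 kb of the TSS at 3 genes, Eomes, Gsc and Mixl1, beside 46.9% of all TSSs, with ratios of 1.97, 2.22 and 2.69. Elsewhere it lay between 3 kb and 10 kb away, with Sox17 highest at 3.53, in a window centred 3250 bases downstream.

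With distance from the TSS the Msl1 reads of the 10 genes fell slowly. Reads per kb over the genome level were 3.68 (3.26 to 4.13) in the first kb downstream, 2.64 (2.29 to 3.03) in the next, 2.11 (1.93 to 2.31) from 2 to 5 kb and 1.62 (1.49 to 1.75) from 5 to 10 kb, and 1.31 (1.23 to 1.39) from 10 to 20 kb. Over all TSSs the same segments had 3.46, 2.10, 1.61, 1.47 and 1.41, and over CpG-rich TSSs 5.39, 2.90, 2.003, 1.76 and 1.66. From 2 to 5 kb, the 3 genes with the most Msl1 reads, Hand1, Eomes and Sox17, held 206 of 483, and the other 7 genes together had 1.73 (1.53 to 1.95). These 3 were picked by their reads in this segment, so the value of the other 7 is lower by that choice. From 2 to 1 kb upstream the 10 genes had 2.32 (1.995 to 2.69), beside 1.54 and 1.88. From 5 to 2 kb upstream they had 1.66 (1.496 to 1.84), beside 1.34 and 1.52. Added up, the Msl1 reads of the lineage regulators were thus lower than those of CpG-rich TSSs in the first kb of the gene. They were higher from 2 to 1 kb upstream, where 177 reads were counted. Of these, Hand1 held 11 and 12 in the bins that start 1750 and 1500 bases upstream. Hand1 has another annotated TSS 671 bases upstream, and Gm10000 starts 1161 bases upstream of the Gsc TSS. Whether the upstream excess holds without these genes was not tested. For Nsl1 the 10 genes had 1.53 (1.296 to 1.799) in the kb before the TSS and 1.71 (1.46 to 1.99) in the kb after it, beside 3.30 and 3.24 in CpG-rich TSSs. From 2 to 1 kb upstream they had 1.51 (1.28 to 1.78) and from 1 to 2 kb downstream 1.31 (1.09 to 1.55), beside 1.48 in both segments of CpG-rich TSSs. From 2 to 5 kb downstream they had 1.58 (1.44 to 1.74), beside 1.35 in CpG-rich TSSs and 1.26 over all TSSs. In that segment the number of Nsl1 reads ran from 25 at T to 66 at Sox17. The 3 genes with the most, Sox17, Hand1 and Gata6, held 188 of the 462 reads. The other 7 genes together had 1.34 (1.19 to 1.51). These 3 were likewise picked by their reads here, so the value of the rest cannot be compared with the class. Beyond 5 kb the Nsl1 segments of the 10 genes lay between 1.28 and 1.37, beside 1.34 to 1.35 in CpG-rich TSSs.

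**Figure D5:**
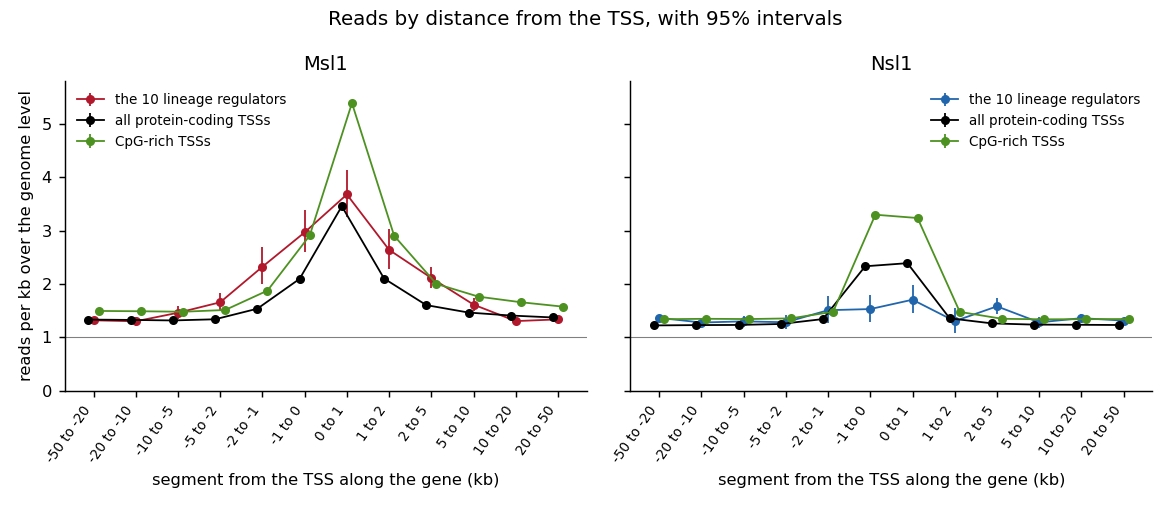
Reads per kb over the level of the whole genome in 12 segments from 50 kb upstream to 50 kb downstream of the TSS, for Msl1 (left) and Nsl1 (right), with points for the 10 genes added up, all tested TSSs and CpG-rich TSSs and bars for exact 95% intervals. The Msl1 points of the 10 genes run from 1.303 in the segment from 20 to 10 kb upstream to 3.68 in the first kb downstream, and their Nsl1 points from 1.28 to 1.71.

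The ratio of reads per kb from 500 to 2000 bases downstream to those within 500 bases was taken next. In the 10 genes it had a median of 0.989 for Msl1 and 0.929 for Nsl1. The medians were 0.8205 and 0.667 over all TSSs and 0.747 and 0.452 over CpG-rich TSSs. From added reads the Msl1 ratio was 0.8201 (0.695 to 0.968) in the 10 genes, beside 0.8215 over all TSSs. The Nsl1 ratio was then 0.857 (0.692 to 1.06), beside 0.476. With the most upstream TSS of each gene the order turned for Msl1, with 0.759 in the 10 genes beside 0.839 over all TSSs. For Msl1 it ran from 0.264 (0.147 to 0.457) at Mixl1 and 0.303 (0.153 to 0.574) at Gata4 to 1.95 (1.02 to 3.99) at Foxa2. The reads of Mixl1 and Gata4 thus dropped within 2 kb, and those of Foxa2 rose. Gata6, Cdx2, Eomes and Hand1 lay between 1.24 and 1.41 and T, Gsc and Sox17 between 0.444 and 0.741, with intervals that included 1 at all of these but Sox17. For Nsl1 the counts were small, and the intervals excluded 1 at Sox17 with 0.381 (0.171 to 0.811) and Mixl1 with 0.424 (0.201 to 0.867).

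Along the genes, from 500 bases after the TSS to the gene end, the median Msl1 ratio was 1.79, beside 1.10 over all tested genes, and the median Nsl1 ratio was 1.03, beside 1.02. Foxa2 had the highest Msl1 ratio along the gene with 2.70 (2.03 to 3.52), followed by Gsc with 2.41 (1.70 to 3.32) and Cdx2 with 2.09 (1.73 to 2.51). Lowest were Gata4 with 0.923 (0.822 to 1.04) and Mixl1 with 0.992 (0.717 to 1.34). Gata4 and Gata6 are the longest genes, with 46.4 and 33.1 kb, while the other 8 have between 2.12 and 8.07 kb, so that their gene bodies lie close to the TSS. Gata6 had a ratio of 1.23 (1.06 to 1.41). For Nsl1, Sox17 was highest with 1.51 (1.19 to 1.90), and the interval included 1 at the other 9 genes. Without the first 2 kb the medians were 1.58 for Msl1 and 1.07 for Nsl1, given here without those of all genes. Gsc, with 2.12 kb, was too short to be counted here, so these medians are over the other 9 genes.

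Each gene was also divided into 5 equal parts. Added over the 10 genes, the Msl1 ratio was 2.01 in part 1 and between 1.12 and 1.31 in parts 2 to 5, and the Nsl1 ratio was 1.27 in part 1 and between 0.902 and 1.17 in the others. Gata4 and Gata6 make up 9.27 and 6.62 kb of the 23.98 kb that each part holds over the 10 genes. The median over the genes, which gives each gene the same weight, was 2.34, 1.44, 1.93, 1.62 and 1.14 for Msl1 in parts 1 to 5, and 1.21, 0.835, 0.948, 0.995 and 1.24 for Nsl1. Mixl1 fell from 3.06 in part 1 to 0.788 in part 2, and Gata6 from 2.27 to 0.827. Gsc stayed high over parts 1 to 3, with 4.48, 4.72 and 3.07, and Cdx2 had 3.40, 2.90 and 1.88. Foxa2 had its highest value in part 3, 3.64, and Sox17 in part 4, where Msl1 had 2.82 and Nsl1 2.46. Sox17 alone thus had both antibodies above 2 in the same part away from the TSS. In the 2 kb after the end of the gene the Msl1 ratio ran from 0.390 at Gata4 to 1.83 at Sox17 and the Nsl1 ratio from 0.518 at Gsc to 1.40 at Foxa2.

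Reads were also counted in exons and introns of the 10 genes, without a comparison with other genes. The median exon ratio was 1.94 for Msl1 and 1.31 for Nsl1, and the median intron ratio was 1.65 and 0.946. Gsc, with 3 exons, had 46 Msl1 reads in exons at 3.64 (2.64 to 4.89) and 21 in introns at 2.46 (1.52 to 3.78). The highest Nsl1 exon ratio was that of Sox17, with 55 reads in 5 exons at 1.63 (1.22 to 2.15). The first exon lies in the window at the TSS, and its part in these values was not tested.

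Other annotated start sites gave further values for some of the genes. The Foxa2 site 1021 bases upstream had 18 Msl1 reads within 500 bases at 2.12 (1.25 to 3.37), higher than at the site used, and 12 Nsl1 reads at 1.12 (0.575 to 1.96). At Eomes the site 517 bases downstream had 34 Msl1 reads at 2.71 (1.86 to 3.80) and 23 Nsl1 reads at 1.74 (1.10 to 2.63). Both values were above those of the site used, with overlapping windows and intervals. The Hand1 site 671 bases upstream had 26 Msl1 reads at 1.94 (1.26 to 2.86) and 25 Nsl1 reads at 1.27 (0.820 to 1.88), with overlapping intervals. The Gata4 sites 26421 and 25853 bases upstream had 14 and 12 Msl1 reads at 1.37 (0.743 to 2.30) and 1.17 (0.602 to 2.05), and the site 31664 bases downstream had 13 at 1.27 (0.672 to 2.18). The raised Msl1 reads of Gata4 were thus at the site used and the annotated sites within 23 bases of it. With the most upstream site of each gene the count at 2 or more for Msl1 within 500 bases was again 7, beside 46.0% of all TSSs, with Foxa2 in place of Gata4. In 2 cases another gene starts within 5 kb. The lincRNA gene 1010001N08Rik starts on the opposite strand 1021 bases upstream and 57 bases downstream of the Gata6 TSS, and Gm10000, annotated as protein-coding, starts on the opposite strand 1161 bases upstream of the Gsc TSS. Reads within 2 kb of these TSSs cannot be assigned to either gene alone.

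Of 36 other regulators of mesoderm, endoderm and trophoblast, 22 reached 2 for Msl1 and 5 for Nsl1 within 500 bases, beside the 46.5% and 41.6% of all TSSs and the 77.4% and 66.4% of CpG-rich TSSs given above, and the medians were 2.19 and 1.26. The quotient of Msl1 to Nsl1 was 1.5 or more at 26 of the 36 and its inverse at 0, beside 26.5% and 9.44% of all TSSs and 43.8% and 5.0% of CpG-rich TSSs. A CpG-rich TSS was found at 22 of these 36 genes, at 16 of 17 neural regulators and at 8 of 18 pluripotency factors, so that the lists differ in this respect. Isl1, a LIM homeobox gene of the cardiac mesoderm, and Esx1, a homeobox gene of the placenta, were highest for Msl1 with 5.90 (3.96 to 8.49) and 5.11 (3.20 to 7.78), and Meox1 and Elf5 lowest with 0.651 and 0.820. For Nsl1, Tbx20 with 2.55 (1.64 to 3.79) and Ascl2 with 2.37 (1.64 to 3.34) were highest, and Foxf1a and Otx2 lowest with 0.514 and 0.539. Among 17 neural regulators found in the annotation, 13 reached 2 for Msl1 and 2 for Nsl1, with medians of 2.52 and 1.08, and the quotient of Msl1 to Nsl1 was 1.5 or more at 17 of 17. Among 18 pluripotency factors, which are active in mESCs, 14 reached 2 for Msl1 and 5 for Nsl1, with medians of 2.55 and 1.48, and the quotient was 1.5 or more at 15 of 18. Along the gene the median Msl1 ratio of the pluripotency factors was 2.71, beside 1.79, and their median ratio of the reads from 500 to 2000 bases to those within 500 bases was 1.39, beside 0.989. Within 2 kb their added Msl1 ratio was 2.94 (2.82 to 3.07), beside 2.15 (2.01 to 2.31) in the 10 lineage regulators.

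Of 2164 other genes with at least 100 reads of each library within 2 kb, those nearest to the medians of the 10 genes in the 4 log2 ratios, with both libraries in both windows, were Nags, Hes7 and Itga3. Nags had ratios within 500 bases of 2.63 for Msl1 and 1.04 for Nsl1, Hes7 of 2.31 and 1.06, and Itga3 of 2.26 and 1.21. The likeness of Nags, Hes7 and Itga3 to these medians is what they were picked by. Apart from Hand1, the 10 genes themselves had under 100 Nsl1 reads within 2 kb, down to 43 at Gata6. Other genes with so few Nsl1 reads were left out of the search.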

How the data were processed

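DNA from ChIP of wild-type mESCs was sequenced as single reads. After base calling with CASAVA 1.8.2, the authors mapped unique reads to the mm9 genome with Bowtie 0.12.7 and deposited a line for each read with its position and strand. Lines also carry a score, deposited as 255 throughout and left unused. The files held 23888517 Msl1 and 26084098 Nsl1 reads, with 18.3% and 4.56% of the nuclear reads repeating a position and strand. Mitochondrial reads were left out and 1 read was kept per position and strand, which left 19483142 and 24883001 reads, or 7.62 and 9.73 reads per kb of genome, and between 6 and 48 reads in a window of 500 bases on both sides of the TSS of a named gene. Intervals cover counting error of these reads only.

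From these positions, each read was placed at the centre of its fragment, whose length of 206 bases in the Msl1 and 129 bases in the Nsl1 library came from strand cross-correlation on chromosomes 16, 18 and 19. Genes came from GENCODE vM1 on mm9, with 1 TSS per protein-coding gene, that of the transcript with the longest coding sequence. The 95% intervals of ratios are exact conditional binomial intervals of 2 counts. Python 3.11.15 with numpy 2.4.6, pandas 2.3.3, scipy 1.17.1, pysam 0.24.0 and matplotlib 3.10.9 was used, and the counting was tested on simulated data. The members, gene lists and thresholds were chosen with earlier results of these data known. Named are all 10 members, the 2 highest and 2 lowest of the other lineage regulators per library, the 3 genes nearest to the members' medians and genes starting within 5 kb. Of the other lists, 36 of 36 lineage, 18 of 18 pluripotency and 17 of 18 neural regulators were found, 3 of them under an older symbol. Peaks were not called, and the Input used by the authors was not used here. The alternatives were all reads kept, another shift, TSS, window, local level or threshold, and the genome level as background.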

Additional observations from a re-analysis of the deposited data

How the results depend on the processing

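No paired analysis was possible because each antibody has 1 library. With the genome level as background, the number of the 10 genes at 2 or more became 3 for Nsl1 within 500 bases, 10 for Msl1 within 2 kb and 1 for Nsl1 within 2 kb, beside 52.3%, 52.4% and 35.4% of all tested TSSs. The medians then became 3.28 for Msl1 and 1.59 for Nsl1 within 500 bases, 3.004 and 1.38 within 2 kb, and 2.49 and 1.27 along the gene, where the local level of the 10 genes was 0.959 to 1.76 times the genome level for Msl1 and 1.105 to 2.02 times for Nsl1. With reads moved by 100 bases, 1 gene reached 2 for Nsl1 within 500 bases, beside 41.4% of all TSSs. With the most upstream TSS, the medians of Msl1 became 1.84 within 2 kb and 0.759 for the downstream ratio, beside 1.54 and 0.839 over all TSSs, so that the order of the 10 genes and all TSSs turned for the downstream ratio. A threshold of 1.5 gave 2 genes for Nsl1 within 500 bases and 10 for Msl1 within 2 kb, beside 58.2% and 51.7% of all TSSs. A threshold of 3 gave 4 and 1 genes for Msl1 within 500 bases and 2 kb, beside 23.8% and 6.45%. A threshold of 2 on the quotient of the libraries gave 4 genes, beside 9.87%. The downstream ratio of Msl1 from 1000 bases was 0.830, and its ratio along the gene from 2 kb was 1.58 without Gsc, which was too short for it. Both are given without the value over all TSSs, so that the order is not compared here. The other 73 values over the 10 genes stayed within 1.5 times the count or within the counting interval. Of 300 values of single genes under these alternatives, 18 moved beyond their interval, and 0 of the called values changed direction. The depth of 1 library per antibody limits single genes, where 6 to 48 reads per window give wide intervals, and it gives no measure of the spread between cultures.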
